A study of Homo sapiens with 12 samples.

Results

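The genes described here are 49 genes of DNA replication and nucleotide synthesis, of 18417 genes that had a row of their own in the expression table. They were taken from a list of names. Each was represented by its probe set with a single gene symbol, or by the brightest such probe set over the 12 arrays where there were several, which was the case for UHRF1 alone. All 49 genes on the list had such a row. They fell into 8 roles, the first being 5 regulators of entry into S phase and 5 origin licensing genes. A further 13 were grouped as helicase genes: MCM2 to MCM8, MCM10, CDC45 and GINS1 to GINS4. Then came 2 subunits of the kinase that fires origins and 6 polymerase and primase genes. Last were 10 genes of the sliding clamp, its loader and strand processing, 4 nucleotide synthesis genes and 4 genes that rebuild chromatin behind the fork.

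The study asked how the chromatin remodeller CHD8 takes part in the response of breast cancer cells to progestin. T47D-MTVL cells, a luminal breast cancer line with progesterone receptor that carries a single integrated copy of a luciferase reporter under the MMTV promoter, received either siRNA directed at CHD8 (siCHD8) or a non-targeting control, siCt. All cells, controls included, then spent 48 h without serum and without phenol red, and received 10 nM R5020, a synthetic progestin, or its vehicle ethanol (EtOH) for 6 h. The 4 conditions are called siCt EtOH, siCt R5020, siCHD8 EtOH and siCHD8 R5020, each with 3 arrays labelled as biological replicates. Values are log2 probe set intensities after RMA, and a difference of 1 on this scale is a doubling. A gene is called higher or lower where its Benjamini-Hochberg adjusted p in limma, taken over all 21214 probe sets with a gene symbol, was under 0.05. "Background" is the share of those 21214 probe sets that met the same criterion in the same direction.

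Cells prepare for S phase by loading the MCM helicase on origins in G1, which needs the origin recognition complex with CDC6 and CDT1. At the onset of S phase the kinase CDC7-DBF4, MCM10, CDC45 and the GINS complex turn the loaded MCM ring into an active helicase, and polymerases, the PCNA clamp and enzymes that supply deoxynucleotides then copy the DNA. Many of these genes are transcribed in late G1 under the E2F family of transcription factors, and progestins are known to drive breast cancer cells through a limited number of cell cycles. The 2 hormone comparisons and the 2 knockdown comparisons share arrays with one another, so that they are not independent. The arrays measured RNA from whole cultures, so that a change in the number of cells in G1 or S phase cannot be told apart from a change in RNA per cell.

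The siRNA target read 5.70, 5.71 and 5.91 in siCt EtOH, 5.52, 5.24 and 5.29 in siCt R5020, 5.42, 5.11 and 5.04 in siCHD8 EtOH, and 4.77, 4.62 and 4.81 in siCHD8 R5020. CHD8 was thus lower on every siCHD8 array than on every siCt array of the same treatment. Its remaining signal was 66.9% with vehicle and 65.3% with R5020, but neither knockdown difference passed the limit (log2 -0.58 and -0.62, limma adjusted p = 0.0711 and 0.0627). The study also checked the depletion of CHD8 by western blot, RT-qPCR and ChIP. Those are other measures than array signal and were not part of these data. CHD8 itself fell with R5020, by 0.42 in siCt and by 0.46 in siCHD8 on the log2 scale (adjusted p = 0.0349 and 0.0258). Arrays of a condition correlated at 0.989 to 0.996. Replicate 3 of siCt EtOH (mean r 0.98915) and replicate 1 of siCHD8 EtOH (0.99045) stood farthest from their own condition. They are called the outlying vehicle arrays below, but siCHD8 EtOH replicate 3 (0.99069) was almost as far as replicate 1. All 10 luminal epithelial markers lay above the median of the probe sets tested (4.59), against 1 of 9 fibroblast markers (COL1A1) and 0 of 9 blood and endothelial markers. With R5020, 6 of the 10 luminal markers fell in siCt cells and 6 in siCHD8 cells (background 6% and 5.43% lower). The largest falls were those of FOXA1 in siCt cells (-1.65) and PGR in siCHD8 cells (-1.50). In each comparison 1 of the 10 had a change above 0.

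Promoters are shown for 7 genes whose values the results turn on, because E2F factors bind octamers close to the start of many replication genes. Each line gives the 160 bases that end just before the start of transcription, 5′ to 3′ on the strand of the gene (RefSeq, GRCh38.p14). Capitals mark the octamers TTTCGCGC, TTTGGCGC or TTTCCCGC, or their reverse complements, in the first 6 lines and CCAAT in the line of MCM10, which held none of the octamers.
GINS2: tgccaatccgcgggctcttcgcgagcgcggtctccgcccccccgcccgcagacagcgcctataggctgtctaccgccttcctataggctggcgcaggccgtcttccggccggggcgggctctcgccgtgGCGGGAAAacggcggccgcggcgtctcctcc
MCM6: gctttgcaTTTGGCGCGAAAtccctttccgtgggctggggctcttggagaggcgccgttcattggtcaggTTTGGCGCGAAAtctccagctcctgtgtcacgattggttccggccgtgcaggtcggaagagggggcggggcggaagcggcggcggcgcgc
MCM7: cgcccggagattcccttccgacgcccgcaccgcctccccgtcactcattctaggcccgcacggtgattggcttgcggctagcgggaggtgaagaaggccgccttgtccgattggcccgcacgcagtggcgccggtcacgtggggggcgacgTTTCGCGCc
E2F1: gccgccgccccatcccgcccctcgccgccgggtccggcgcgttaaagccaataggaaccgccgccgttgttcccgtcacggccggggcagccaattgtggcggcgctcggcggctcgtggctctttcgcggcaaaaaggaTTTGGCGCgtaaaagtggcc
POLA1: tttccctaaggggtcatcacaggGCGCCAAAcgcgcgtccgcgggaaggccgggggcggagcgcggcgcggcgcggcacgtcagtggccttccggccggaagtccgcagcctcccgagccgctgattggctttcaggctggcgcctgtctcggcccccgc
TYMS: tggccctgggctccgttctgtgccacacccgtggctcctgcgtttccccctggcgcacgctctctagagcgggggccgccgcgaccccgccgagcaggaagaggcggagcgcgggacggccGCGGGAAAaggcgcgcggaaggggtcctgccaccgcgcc
MCM10: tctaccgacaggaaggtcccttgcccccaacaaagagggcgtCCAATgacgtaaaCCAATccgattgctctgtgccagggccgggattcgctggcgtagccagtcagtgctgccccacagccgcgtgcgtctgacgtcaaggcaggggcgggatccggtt

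The stretches lie on chr16:85688955-85689114 (GINS2, minus strand), chr2:135876444-135876603 (MCM6, minus strand), chr7:100101398-100101557 (MCM7, minus strand), chr20:33686386-33686545 (E2F1, minus strand), chrX:24693758-24693917 (POLA1, plus strand), chr18:657493-657652 (TYMS, plus strand) and chr10:13161398-13161557 (MCM10, plus strand). The octamer of GINS2 began 31 bases before the start, the one of MCM7 in this stretch 9 bases, that of E2F1 20 bases, that of TYMS 39 bases and that of POLA1 137 bases. MCM7 held a further octamer upstream of the printed bases. MCM6 held 4 octamers in 2 pairs, in each of which a TTTGGCGC and a reversed TTTCGCGC overlap.

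Over windows from 250 bases before to 50 bases after the start, 43 of the 49 genes had an entry in the promoter table; GINS4, RPA2, E2F8, MCM5, RPA3 and MCM4 had none. At least 1 of the 3 octamers, on either strand, was present in 24 of the 43 genes (55.8%), against 3.30% of all 27305 genes of the table and 4.53% of its protein-coding genes. CCAAT was present in 26 of the 43 (60.5%, against 39.7% of all genes and 42.1% of protein-coding genes). Of 23 mitosis genes with an entry, 18 held CCAAT (78.3%) and 3 an octamer (13.0%). The full progesterone receptor element, GNACA and TGTNC with 3 bases between them, was present in 0 of the 43 (0.48% of all genes). It is so rare in such windows that its absence from 43 genes says little, and sites farther away were not searched. Of the 11 genes called in any comparison, 7 held an octamer, and the median change with R5020 in siCt cells was 0.22 over the 24 genes with an octamer and 0.18 over the 19 without. A match is a run of letters and shows no binding.

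R5020 raised 8 of the 49 genes in siCt cells and lowered 0 (background 8.1% higher and 6% lower). GINS2, a subunit of the GINS complex that activates the MCM ring, rose 3.09-fold. The others were CDC6, which loads the MCM ring, MCM6 and MCM10 of the helicase, DBF4, the activator of the CDC7 kinase, POLE2, a subunit of DNA polymerase epsilon, UHRF1, which brings maintenance methylation to new DNA, and SLBP, which binds histone mRNA. No gene of nucleotide synthesis, of the clamp group or of the S phase regulators passed the limit. Of the 49 genes, 43 had a change above 0, whereas 41.2% of all probe sets did, and at an unadjusted p under 0.05 there were 15 higher and 0 lower (background 13.3% and 14.6%). The median change was 0.19, against -0.05 over all probe sets.

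GINS2 read 9.36, 9.58 and 8.42 in siCt EtOH and 10.74, 10.71 and 10.79 in siCt R5020. The hormone arrays lay close together and above all vehicle arrays, of which replicate 3 was far lower than the other two. The change was 1.63 (SE 0.21, adjusted p = 5.25e-05), and without siCt EtOH replicate 3 it was 1.28.

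CDC6 read 5.90, 6.23 and 5.61 in siCt EtOH and 6.63, 6.40 and 6.77 in siCt R5020. Its groups did not overlap, and it rose by 0.69 (SE 0.19, adjusted p = 0.0217). CDC6 lost the call without siCt EtOH replicate 3 and also without each of 3 other arrays, siCt EtOH replicate 1 and siCt R5020 replicates 1 and 3, while its change stayed between 0.54 and 0.85 over the left-out arrays. The other licensing genes, ORC1 and ORC6 of the origin recognition complex, CDT1 and its inhibitor GMNN, had changes from 0.12 (CDT1) to 0.37 (ORC1). ORC1 and ORC6 were dim, with condition means from 3.61 to 4.05 and from 3.87 to 4.16. CDT1 read 5.13, 5.35 and 5.44 in siCt EtOH and 5.54, 5.42 and 5.33 in siCt R5020, with overlap.

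All 13 helicase genes had changes above 0 in siCt cells, 3 of them called, and the median was 0.29. In 8 of the 13 the arrays did not overlap (background 15.3% higher). MCM6, a subunit of the MCM ring, read 5.34, 5.61 and 5.44 in siCt EtOH and 6.20, 5.91 and 6.11 in siCt R5020. MCM10, a factor that joins the ring to polymerase alpha, read 5.66, 5.81 and 5.52 against 6.27, 6.25 and 6.38. Both were clearly separated, with changes of 0.61 (SE 0.13, adjusted p = 0.00398) and 0.63 (SE 0.12, adjusted p = 0.00217). MCM7 read 7.22, 7.27 and 7.28 in siCt EtOH and 7.65, 7.55 and 7.54 in siCt R5020, a change of 0.33 that just missed the limit (adjusted p = 0.0515). MCM2 read 6.33, 6.42 and 6.39 against 6.81, 6.64 and 6.55, without overlap but with an adjusted p of 0.143. MCM3 had the smallest change of the role, 0.00.

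DBF4 read 1.92, 2.25 and 1.90 in siCt EtOH and 2.36, 2.66 and 2.63 in siCt R5020. It rose by 0.53 (SE 0.14, adjusted p = 0.0221), but its probe set was dim, with a mean of 2.22 over the 12 arrays, and the call was lost without any of 4 arrays: siCt EtOH replicates 1 and 3 and siCt R5020 replicates 2 and 3. CDC7, the catalytic subunit, had a change of -0.13 and was also dim, with condition means from 2.61 to 2.90. POLE2 read 4.66, 5.18 and 5.31 in siCt EtOH and 5.83, 5.37 and 5.75 in siCt R5020, and rose by 0.60 (SE 0.16, adjusted p = 0.0199). Its lowest hormone array lay just above its highest vehicle array, and the call was lost without siCt EtOH replicate 1 or siCt R5020 replicate 1 or 3. The other genes of the role, among them the catalytic subunits POLD1 and POLE and the primase subunit PRIM1, were not called, and POLD1 ended the role at -0.08. POLA1, the catalytic subunit of polymerase alpha, had a change of 0.40 and an adjusted p of 0.0523.

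UHRF1 read 6.31 on each siCt EtOH array and 6.78, 6.71 and 6.89 in siCt R5020. It rose by 0.48 (SE 0.11, adjusted p = 0.00743). Its other probe set was dim (mean 3.52) and did not follow, with a change of -0.23 (adjusted p = 0.547). Averaging both gave 0.12 and no call. SLBP read 6.75, 6.76 and 7.26 in siCt EtOH and 7.44, 7.59 and 7.30 in siCt R5020, a rise of 0.52 (SE 0.15, adjusted p = 0.0342). The third vehicle array came close to the hormone arrays, and the call was lost without siCt EtOH replicate 1 or 2 or siCt R5020 replicate 1 or 2. The histone chaperone subunits CHAF1A and CHAF1B had changes of 0.09 and 0.19.

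No call fell in the remaining roles in siCt cells. The 4 nucleotide synthesis genes, the ribonucleotide reductase subunits RRM1 and RRM2, thymidylate synthase (TYMS) and thymidine kinase (TK1), had changes from 0.09 to 0.18 (adjusted p from 0.415 up). RRM2 read 6.04, 6.38 and 6.44 in siCt EtOH and 6.29, 6.42 and 6.46 in siCt R5020, and the groups overlapped. In the clamp group changes ran from -0.18 for the ligase LIG1 to 0.32 for RPA2, a subunit of the single-strand binding protein. PCNA, the clamp itself, read 6.76, 6.69 and 7.12 against 7.18, 7.03 and 7.05, a change of 0.23 (adjusted p = 0.340). Among the S phase regulators, E2F1 read 6.81, 6.62 and 6.64 in siCt EtOH and 6.71, 6.79 and 6.87 in siCt R5020, a change of 0.10 with overlap. CDC25A, the phosphatase that activates CDK2, was the highest of the role at 0.41 (adjusted p = 0.0534), and E2F7, a repressor of the family, the lowest at -0.20.

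**Figure D1:**
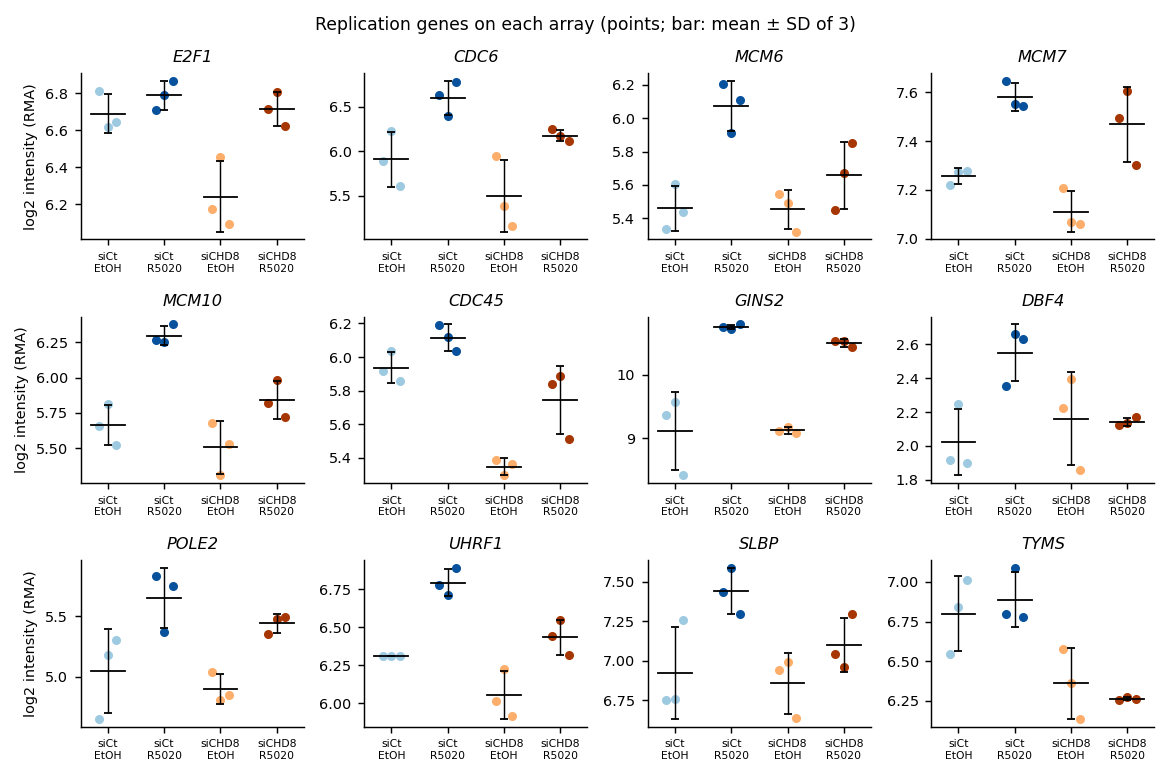
Log2 intensity on each of the 3 arrays of the 4 conditions for the 11 genes called in any comparison and for TYMS; points are arrays, horizontal bars the mean and whiskers the SD, and each panel has its own vertical range that does not start at 0. GINS2 lies above 10.4 on all R5020 arrays and below 9.6 on all vehicle arrays, and TYMS lies lower on the siCHD8 R5020 arrays than on the siCt R5020 arrays.

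In siCHD8 cells R5020 raised 7 of the 49 genes and lowered 0 (background 6.04% higher and 5.43% lower). They were GINS2, CDC6, POLE2 and UHRF1, which were also called in siCt cells, and E2F1, CDC45 and MCM7, which were not. The list as a whole was spread around 0: 27 genes had a change above 0 (background 46%) and 22 below, with a median of 0.06, against -0.02 over all probe sets. Arrays did not overlap in 9 genes upward and in 5 downward (background 13% and 14.2%), and 8 were higher and 4 lower at an unadjusted p under 0.05 (background 10.9% and 11.5%). Those 4 became 2 without siCHD8 EtOH replicate 1 and 1 without siCHD8 R5020 replicate 3. The spread depended on the vehicle arrays. The median turned slightly negative, -0.01, without siCHD8 EtOH replicate 3, and without that array GINS2 was the only call left. Without siCHD8 EtOH replicate 1, by a small margin the array farthest from its condition, 13 genes lay below 0 and the median was 0.10.

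GINS2 read 9.11, 9.18 and 9.09 in siCHD8 EtOH and 10.53, 10.53 and 10.42 in siCHD8 R5020, which is a rise of 1.37 (SE 0.21, adjusted p = 0.00032). Both groups were tight and far apart. It was the only one of the 49 genes with a fold over 1.5 and an adjusted p under 0.01 in siCHD8 cells (background 3.37% higher), while GINS2, MCM6 and MCM10 met both limits in siCt cells (background 4.4% higher).

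CDC6 read 5.94, 5.39 and 5.16 in siCHD8 EtOH and 6.25, 6.17 and 6.12 in siCHD8 R5020. The hormone arrays lay close together above spread vehicle arrays, for a rise of 0.68 (SE 0.19, adjusted p = 0.0267). Over the left-out arrays the rise lay between 0.51 (without siCHD8 EtOH replicate 3) and 0.90 (without siCHD8 EtOH replicate 1). POLE2 read 5.04, 4.81 and 4.85 against 5.35, 5.47 and 5.49, and rose by 0.54 (SE 0.16, adjusted p = 0.0420). UHRF1 read 6.02, 6.23 and 5.92 against 6.44, 6.55 and 6.32, and rose by 0.38 (SE 0.11, adjusted p = 0.0350), while its dim second probe set had a change of -0.13 and the average of both 0.12 with no call. None of the 3 genes overlapped between the groups.

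E2F1, an activator of the S phase programme, read 6.18, 6.46 and 6.09 in siCHD8 EtOH and 6.71, 6.81 and 6.62 in siCHD8 R5020. It rose by 0.47 (SE 0.12, adjusted p = 0.0140), into the range of its siCt arrays. CDC45, the helicase subunit that joins MCM and GINS, read 5.39, 5.29 and 5.36 against 5.84, 5.88 and 5.51, a rise of 0.40 (SE 0.11, adjusted p = 0.0342). MCM7 read 7.21, 7.07 and 7.06 against 7.50, 7.61 and 7.30, a rise of 0.36 (SE 0.11, adjusted p = 0.0384). In all 3 genes the lowest hormone array lay above the highest vehicle array. These calls, like those of CDC6, POLE2 and UHRF1, were lost without siCHD8 EtOH replicate 3 or without siCHD8 R5020 replicate 2, and leaving out 1 of the other siCHD8 arrays left 2 to 6 calls. Over all 21214 probe sets, higher and lower together, calls were 2432 in the main fit. They were 2323 without siCHD8 EtOH replicate 3 and 1722 without siCHD8 R5020 replicate 2.

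Other genes called in siCt cells were not called here. MCM6 read 5.55, 5.50 and 5.32 in siCHD8 EtOH and 5.45, 5.67 and 5.85 in siCHD8 R5020, with overlap and a change of 0.20 (adjusted p = 0.402). MCM10 read 5.68, 5.31 and 5.53 against 5.82, 5.99 and 5.72, a change of 0.34 (adjusted p = 0.0994). SLBP read 6.95, 6.99 and 6.64 against 7.04, 6.96 and 7.29, a change of 0.24 (adjusted p = 0.403). DBF4 read 2.23, 2.40 and 1.86 against 2.12, 2.13 and 2.17, a change of -0.02 (adjusted p = 0.965). The hormone arrays of MCM10 lay above its vehicle arrays, whereas those of the other three overlapped. At the other end of the list, POLA1 had a change of -0.31 (adjusted p = 0.153), E2F2 -0.31 and E2F7 -0.30. RPA1, the large subunit of the single-strand binding protein, had -0.30 (adjusted p = 0.0733). E2F2 was dim, with means of 4.12 in siCHD8 EtOH and 3.81 in siCHD8 R5020. Of the 4 nucleotide synthesis genes 3 had changes below 0, RRM1 at -0.20, RRM2 at -0.18 and TYMS at -0.10, and TK1 had 0.15. RRM2 read 6.25, 6.06 and 6.15 in siCHD8 EtOH and 6.01, 6.13 and 5.77 in siCHD8 R5020. MCM2 read 6.19, 6.34 and 5.92 against 6.14, 6.36 and 6.28, CDT1 5.24, 5.08 and 4.45 against 5.08, 5.18 and 5.26, and PCNA 6.85, 6.35 and 6.57 against 6.50, 6.76 and 6.82. All 4 of these genes overlapped between the treatments.

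**Figure D2:**
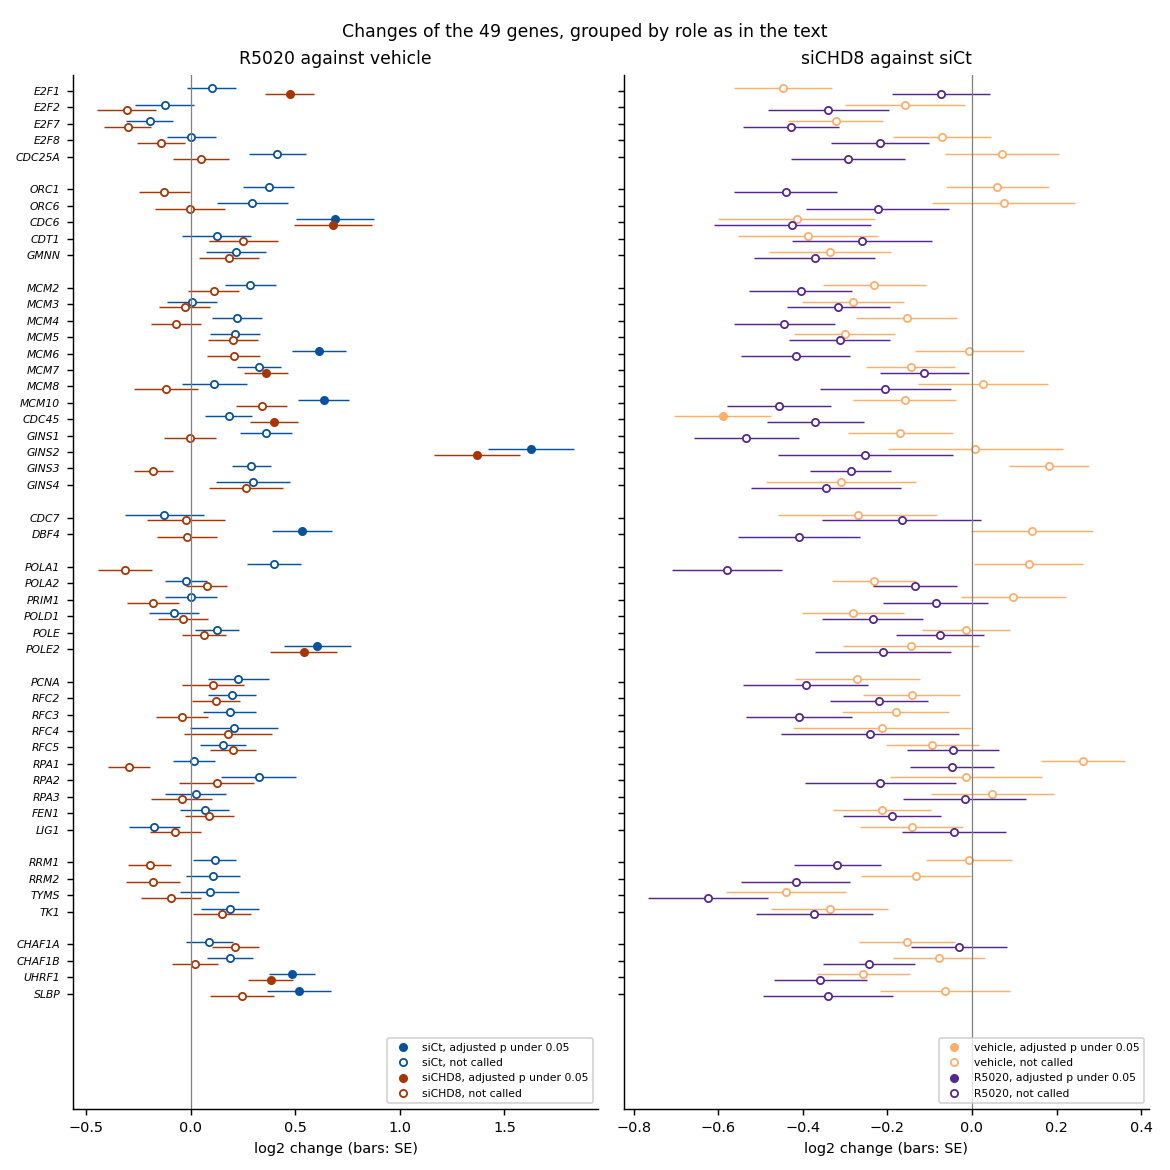
Log2 change of each of the 49 genes in limma, with SE as bars, for R5020 against vehicle in siCt and siCHD8 cells (left) and for the knockdown with either treatment (right); filled points have an adjusted p under 0.05, and genes are set out by role. GINS2 stands apart on the left at 1.63 and 1.37, and on the right all 49 points of the R5020 comparison lie below 0.

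Whether a response differed between siCHD8 and siCt cells was tested as the difference of both responses. No gene of the list passed the limit, nor did any of the 21214 probe sets (background 0). At an unadjusted p under 0.05, 7 of the 49 genes had a lower response in siCHD8 cells and 1 a higher (background 4.67% and 4.89%). The 7 were POLA1, GINS3, ORC1, DBF4, MCM6, RPA1 and RRM1, and the 1 was E2F1. The response was lower in siCHD8 cells in 38 of the 49 genes (background 47.9%), with a median difference of -0.12 against 0.01 over all probe sets. Without siCHD8 EtOH replicate 1 it was lower in 29 genes with a median of -0.08, and without both outlying vehicle arrays in 27 genes with a median of -0.07. The 7 genes became 3 without both of these arrays and 4 without siCHD8 EtOH replicate 1, siCt R5020 replicate 3 or siCHD8 R5020 replicate 1 or 2. Other lists described below went the same way. The response was lower in siCHD8 cells in 24 of 27 mitosis genes, with a median difference of -0.19. It was also lower in 63 of 80 further replication and nucleotide genes, with a median of -0.14. For GINS2 the difference was -0.26 and for CDC6 -0.01. The SE of such a difference was 0.19 at the median of all probe sets, more than the size of most of these differences.

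POLA1 had the largest difference. It read 5.33, 5.62 and 5.13 in siCt EtOH, 5.82, 5.74 and 5.71 in siCt R5020, 5.60, 5.41 and 5.47 in siCHD8 EtOH, and 5.30, 5.23 and 5.01 in siCHD8 R5020. Its hormone arrays lay above the vehicle arrays in siCt and below them in siCHD8, a difference of -0.71 (95% interval -1.10 to -0.32, adjusted p = 0.490). DBF4 had -0.55 (adjusted p = 0.498), ORC1 -0.50 (adjusted p = 0.490) and MCM6 -0.41 (adjusted p = 0.511). Like DBF4, ORC1 was dim, with condition means from 3.61 to 4.05, below the median of 4.59 of the probe sets tested. E2F1 differed the other way, by 0.37 (adjusted p = 0.511).

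With vehicle, 1 of the 49 genes was lower in siCHD8 than in siCt cells and 0 were higher (background 0.179% lower and 0.113% higher). This was CDC45, which read 5.92, 6.04 and 5.86 in siCt EtOH and 5.39, 5.29 and 5.36 in siCHD8 EtOH. The groups were far apart and the difference was -0.59 (SE 0.11), but the adjusted p of 0.0498 lay at the limit and the call was lost in 17 of 23 other settings. Of the 49 genes, 38 had a difference below 0 (background 51.2%), and the median was -0.15, against -0.01 over all probe sets. At an unadjusted p under 0.05, 13 were lower and 1 higher (background 6.98% and 5.16%). The 13 became 6 without siCHD8 EtOH replicate 3, 7 without siCt EtOH replicate 2, 8 without siCt EtOH replicate 1 or after median centring, and 4 with the compared conditions fitted alone, but 18 without both outlying vehicle arrays. The higher one was RPA1 at 0.26.

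E2F1 came next, lower on every siCHD8 EtOH array than on every siCt EtOH array, with a difference of -0.45 (SE 0.12, adjusted p = 0.127). TYMS read 6.54, 6.84 and 7.01 in siCt EtOH and 6.58, 6.36 and 6.13 in siCHD8 EtOH, with overlap and a difference of -0.44 (adjusted p = 0.212). CDC6 had -0.41 and CDT1 -0.39, both with overlap, while ORC1 and ORC6 had 0.06 and 0.08. The licensing genes thus had differences of both signs. Arrays did not overlap in 7 genes downward (E2F1, E2F7, MCM5, MCM7, CDC45, POLA2 and UHRF1) and in 2 upward, GINS3 and RPA1 (background 8.06% and 5.63%). In the same comparison 21 of 27 mitosis genes had a difference below 0, with a median of -0.15. So did 54 of 80 further replication and nucleotide genes, with a median of -0.07.

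With R5020, all 49 genes had a lower mean in siCHD8 than in siCt cells, whereas 47.8% of all probe sets did, but no single gene passed the adjusted limit (0 lower and 0 higher, background 0.156% and 0.033%). The median difference was -0.29, against 0.01 over all probe sets, and values ran from -0.63 for TYMS to -0.02 for RPA3. At an unadjusted p under 0.05, 26 of the 49 genes were lower and 0 higher (background 7.67% and 6.24%), and 16 were lower without siCt R5020 replicate 1. In 30 of the 49 genes every siCHD8 array lay below every siCt array (background 15.3%). The genes share their arrays, so that the 49 are not independent observations of the knockdown. The count of 49 was 45 after quantile normalization, 48 with array weights and 47 to 49 with any 1 array left out.

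POLA1 had the lowest adjusted p of the list, 0.0831, with a difference of -0.58 (SE 0.13) and no overlap. TYMS read 6.80, 7.09 and 6.78 in siCt R5020 and 6.25, 6.27 and 6.26 in siCHD8 R5020. The siCHD8 arrays were nearly equal and lay well below all siCt arrays, a difference of -0.63 (SE 0.14, adjusted p = 0.0899). GINS1, another GINS subunit, read 6.69, 6.66 and 6.79 against 5.98, 6.20 and 6.35, a difference of -0.53 (SE 0.13, adjusted p = 0.0925). These 3 genes passed the limit when dim probe sets were left out. With arrays weighted by their quality 12 genes did: E2F7, ORC1, MCM2, MCM4, MCM6, MCM10, CDC45, GINS1, POLA1, RFC3, TYMS and UHRF1. Calls over all probe sets, higher and lower together, also rose. They were 40 of 21214 in the main fit, 154 of 10607 with dim probe sets left out and 916 of 21214 with array weights.

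Of all probe sets, 15.3% were separated in this direction, which is the background for the counts by role. By role, the nucleotide synthesis genes had the lowest median, -0.39, and all 4 of them were separated: RRM1 -0.32, RRM2 -0.42, TK1 -0.37 and TYMS -0.63. None of the 4 had been called with R5020. The licensing genes followed at -0.37, with 4 of 5 separated, from -0.44 for ORC1 to -0.22 for ORC6. The helicase genes had a median of -0.34, and 11 of 13 were separated, all but MCM7 and MCM8. MCM10 had -0.46, MCM4 -0.44, MCM6 -0.42 and MCM2 -0.41, while GINS2, the gene most raised by R5020, had -0.25. The 2 kinase subunits had -0.41 (DBF4) and -0.17 (CDC7). The S phase regulators had a median of -0.29, with E2F7 lowest at -0.43 and E2F1 highest at -0.07. The chromatin genes also had -0.29, with UHRF1 lowest at -0.36 and CHAF1A highest at -0.03.

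The clamp group and the polymerases were shifted least. The clamp group had a median of -0.20, with RFC3, a subunit of the clamp loader, lowest at -0.41 and PCNA at -0.39. The polymerases had a median of -0.17, and apart from POLA1 none had an unadjusted p under 0.05. No difference between roles was tested.

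**Figure D3:**
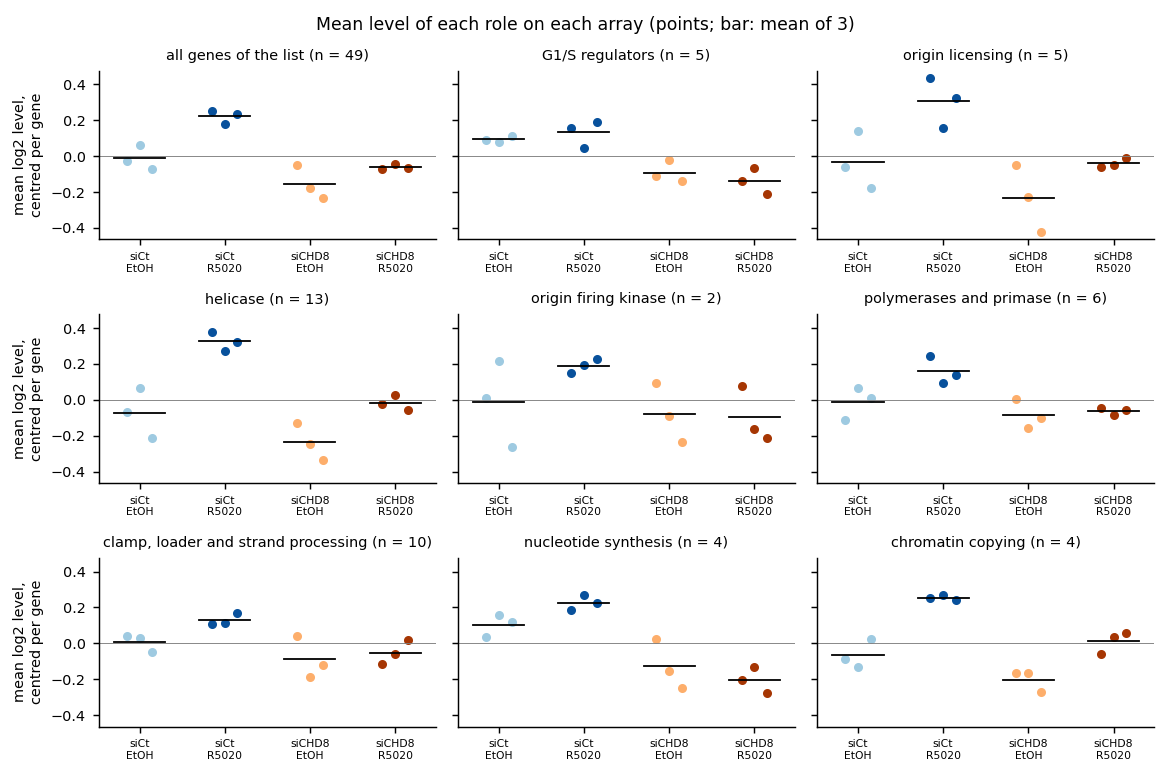
Mean log2 level on each array, after centring each gene on its mean over the 12 arrays, for all 49 genes and for each of the 8 roles; points are arrays and bars the mean of 3. The siCt R5020 arrays are the highest in the panel of all 49 genes, from 0.18 to 0.25, and the siCHD8 R5020 arrays lie between -0.07 and -0.04.

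On the mean over the 49 genes, each centred on its own mean, the siCt EtOH arrays stood at -0.02, 0.06 and -0.07 and the siCt R5020 arrays at 0.25, 0.18 and 0.24. The siCHD8 EtOH arrays stood at -0.05, -0.18 and -0.23 and the siCHD8 R5020 arrays at -0.07, -0.04 and -0.07. The siCt R5020 arrays were thus apart from all others, and the siCHD8 EtOH arrays were the most spread.

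A further list of 84 replication and nucleotide genes, of which 80 had a row, was read the same way. In siCt cells R5020 raised 10 of the 80 and lowered 2 (background 8.1% and 6%), and in siCHD8 cells it raised 7 and lowered 3 (background 6.04% and 5.43%). CTPS2, a CTP synthase, rose by 0.88 in siCt and 0.81 in siCHD8, and IMPDH1, which opens guanine nucleotide synthesis, by 0.83 and 0.90. RRM2B, the ribonucleotide reductase subunit used outside S phase, read 5.97, 6.05 and 5.18 in siCt EtOH and 6.65, 6.77 and 6.78 in siCt R5020, a rise (adjusted p = 0.00168) in which the low vehicle array was the outlying replicate 3, and it rose by 0.79 in siCHD8 cells. The cyclin CCNE2 rose by 0.82 and 0.67. MTBP and ASF1A rose by 0.76 and 0.60 in siCt cells, and E2F3 by 0.60 in siCHD8 cells. In MTBP and ASF1A the lowest siCt EtOH array was also replicate 3 (3.195 and 4.972). MTBP was dim as well, with a mean of 3.58 in siCt EtOH. ATIC, which completes the purine ring, fell by 0.45 in siCt cells and by 0.78 in siCHD8 cells. POLD4, a small subunit of polymerase delta, fell by 0.50 in siCt cells, and TOPBP1, which acts in origin firing, and RBL2, a pocket protein that holds E2F factors in check, fell by 0.44 and 0.41 in siCHD8 cells.

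Of 27 mitosis genes with a row, only KIF20A, a kinesin of cell division, rose with R5020 in siCt cells (0.46, adjusted p = 0.0455, background 8.1%) and only ECT2, which acts in cytokinesis, fell in siCHD8 cells (-0.39, adjusted p = 0.0466, background 5.43%). With the knockdown in vehicle only CDC20, an activator of the anaphase-promoting complex, was called, at -0.56 (adjusted p = 0.0498, background 0.179% lower). With R5020, however, all 27 mitosis genes had a lower mean in siCHD8 than in siCt cells (background 47.8%), with a median of -0.36 and 22 separated (background 15.3%), and so did 74 of the 80 further replication and nucleotide genes, with a median of -0.21. None of them was called. Genes that act later in the cell cycle thus differed in the same direction as the 49 genes, and their part in the result was not tested. The 10 luminal markers had a median of 0.00 in the same comparison, with 5 above and 5 below 0.

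**Figure D4:**
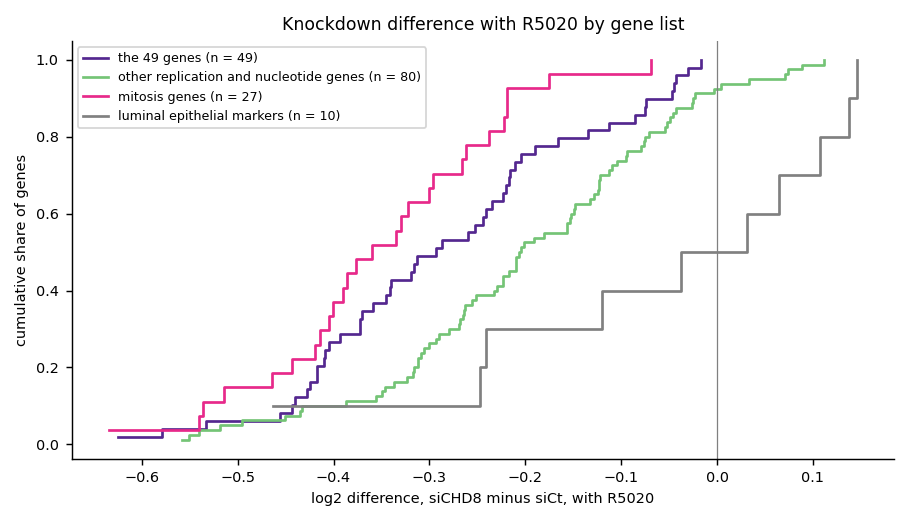
Cumulative share of genes (vertical axis) against the log2 difference between siCHD8 and siCt cells with R5020 (horizontal axis) for the 49 genes, 80 further replication and nucleotide genes, 27 mitosis genes and 10 luminal markers. The curves of the 49 genes and of the mitosis genes reach 1 below a difference of 0, and that of the luminal markers crosses 0 at 5 of 10 genes.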

How the data were processed

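Total RNA of 12 cultures was labelled and read on Affymetrix GeneChip human gene arrays. The values deposited by the authors are log2 intensities after RMA background correction, normalization and summarisation, from GeneChip Command Console and oneChannelGUI. Tool versions: not given in the sources used here. RMA forces a common distribution on the arrays, so that a shift shared by most genes would not be seen.

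Of 33297 probe sets, the 21214 with a symbol in the platform annotation were tested: 19460 had 1 symbol and 1754 several. The 12083 without a symbol were left out. Symbols of all 49 genes were matched to the RefSeq gene table. limma (version 3.58.1, R 4.3.3) fitted 1 mean per condition over all 12 arrays, with moderated variances and 5 contrasts, each adjusted by Benjamini-Hochberg. The number of arrays, 3 per condition, limits the precision. The code was tested on simulated data. Promoter windows were searched in Python 3.11.15. Stricter limits, a fold over 1.5 and an adjusted p under 0.01, were an alternative, beside other normalizations, filters, variance models, left-out arrays and replicate blocks.

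The 49 genes, the other lists and the tests were chosen with earlier results of these data known. Values on every array are given for genes called in any contrast and for E2F1, CDC6, CDT1, MCM2, PCNA, RRM2, TYMS and CHD8; genes at the ends of a role are named, with up to 6 other replication genes and 4 mitosis genes per contrast. POLA1 and GINS1 are given on every array, and further genes are named, because their values stood out.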

Additional observations from a re-analysis of the deposited data

Results flagged for a closer look

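The genes POLA1, GINS3 and RRM1 were flagged because their R5020 arrays lay above all vehicle arrays in siCt cells and below them in siCHD8 cells. The share of all probe sets with this pattern was not counted, so it cannot be said whether it is unusual. POLA1 changed by 0.40 and -0.31, a difference of -0.71. GINS3, a subunit of the GINS complex, changed by 0.29 and -0.18, a difference of -0.47. Its probe set was dim, with condition means from 4.06 to 4.35, below the median of 4.59 of the probe sets tested. RRM1 changed by 0.11 and -0.20, a difference of -0.31. Its separation in siCt cells was narrow, with 7.498 on the highest vehicle array and 7.502 on the lowest R5020 array. In the limma test of the difference the adjusted p was 0.490, 0.490 and 0.522, and none passed the limit.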

How the results depend on the processing

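With 3 arrays a condition, changes near the typical SE of 0.13 were not resolved, and no call of this list in the knockdown comparisons held in every setting. With R5020 in siCt cells, 8 genes were called higher, 14 after median centring of the arrays, 4 with all probe sets tested, 3 at a fold over 1.5 and an adjusted p under 0.01, and 14 at an adjusted p under 0.10. The share of all probe sets with an adjusted p under 0.10 was not counted. Counts at that limit, here and below, thus have no background. Calls over all probe sets in siCt cells, higher and lower together, were 2992 of 21214 in the main fit. They were 2983 of 21214 after median centring and 2477 of 33297 with all probe sets. Outside the main fit, calls over all probe sets were not counted by direction. Median centring moved all probe sets upward. At an unadjusted p under 0.05, 16.4% were higher and 10% lower after it, against 13.3% and 14.6% in the main fit. The median change of 0.19 was 0.11 after quantile normalization. In siCHD8 cells the 7 calls were 2 with all probe sets, 4 with the compared conditions fitted alone, 4 with the replicate block and 1 at the stricter limits. Over all probe sets, calls in siCHD8 cells were 2432 of 21214 in the main fit and 2024 of 33297 with all probe sets. They were 2075 with the compared conditions alone and 2245 with the replicate block. RPA1 became the 1 gene called lower after quantile normalization, with dim probe sets left out and at an adjusted p under 0.10. With vehicle the 1 gene called lower in siCHD8 cells became 0 after median centring, with all probe sets, array weights, the compared conditions alone, the replicate block, both outlying vehicle arrays left out, or the stricter limits. With R5020 the 0 genes called lower became 3 with dim probe sets left out, 1 with trended and robust variance, 12 with array weights, 3 with the compared conditions alone, 4 without both outlying vehicle arrays and 3 at an adjusted p under 0.10. Leaving out 1 array at a time gave 4 to 12 genes higher in siCt cells (4 without siCt EtOH replicate 1, 5 without siCt R5020 replicate 1 or 3, 12 without siCHD8 EtOH replicate 1), 1 to 7 in siCHD8 cells (1 without siCHD8 EtOH replicate 3 or siCHD8 R5020 replicate 2, 2 without siCHD8 R5020 replicate 1, 3 without siCHD8 EtOH replicate 2), 0 to 1 lower with vehicle and 0 to 1 lower with R5020 (POLA1 without siCt EtOH replicate 3), and a median change from -0.0075 to 0.10 with R5020 in siCHD8 cells. Calls over all probe sets, higher and lower together, moved with the left-out array as well. In siCt cells they were 2400 of 21214 without siCt EtOH replicate 1 and 3392 without siCHD8 EtOH replicate 1. In siCHD8 cells they were 2323 without siCHD8 EtOH replicate 3 and 1722 without siCHD8 R5020 replicate 2. For the knockdown with R5020, calls over all probe sets were 40 of 21214 in the main fit and 154 of 10607 with dim probe sets left out. They were 121 with trended and robust variance and 916 with array weights. With the compared conditions alone they were 204, and without both outlying vehicle arrays 280. The cause of these moves was not tested. GINS2 was called in both hormone comparisons, and MCM6 and MCM10 in siCt cells, in all settings tried, and no called change reversed. The replicate numbers gave little sign of pairing. This was read from the deviations of each array from the mean of its condition. In these deviations 4 of 18 same-numbered pairs correlated above 0.1, with r from -0.25 to 0.20. By the same measure 1 of 12 arrays correlated best with its own number. With the replicate block 7 genes were called higher in siCt cells.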
